A study of Homo sapiens with 12 samples.

Results

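NF-kB proteins and the inhibitors that they themselves induce were followed across 12 expression arrays of 2 breast cancer cell lines. The set held 10 genes, 5 subunits (NFKB1, NFKB2, REL, RELA, RELB) and 5 feedback inhibitors or brakes (NFKBIA, NFKBIE, NFKBIZ, TNFAIP3, BIRC3), chosen for their role in the pathway. The choice was made with earlier results of these data known. Each gene was represented by the probe set, annotated to that gene alone, with the highest mean over the 12 arrays. A probe set was found for 9 of the 10 genes, out of 19775 genes on the arrays, and BIRC3 was not analysed here.

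NF-kB is a family of dimeric transcription factors that rest in the cytoplasm while bound to IkB proteins. Receptors of the Toll-like, interleukin-1 and tumour necrosis factor families activate IkB kinases, which mark the IkB proteins for destruction and free the dimers to enter the nucleus. The genes that the dimers switch on include their own inhibitors, among them NFKBIA and TNFAIP3, so that the signal limits itself. Unmethylated CpG DNA engages the pathway through Toll-like receptor 9 in immune cells.

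The lines were Hs578T, from a breast carcinosarcoma, and BT-20, from a breast carcinoma. Cells of each line were treated for 24 h with 200 nM of an oligonucleotide and a liposomal transfection reagent (DOTAP), and neither untreated cells nor cells given only the reagent were analysed here. The methylated (M) and the unmethylated (U) form of a double-stranded sequence from the exon 1 region of CDH13 were each hybridised in set 1 and in set 2, named as biological replicates, which gives 2 arrays for each form and line. The single-stranded CpG oligodeoxynucleotide (ODN) ODN2006 and its GpC control had 1 array each per line, and their array names share a tag with set 2 and not with set 1. In Hs578T 8 of 10 epithelial markers were below 5 in all 6 arrays and 10 of 10 mesenchymal markers were at 5 or above, whereas in BT-20 10 of 10 epithelial markers were at 5 or above and 6 of 10 mesenchymal markers below 5. All 8 immune cell markers with a probe set were below 5 in both lines, and TLR9, the receptor for CpG DNA, lay between 2.31 and 2.34 in the 12 arrays. All levels are log2 GCRMA values, on which 5 was taken as the limit below which a gene counted as dim. Arrays correlated across genes at 0.988 to 0.998 within a line and at 0.869 to 0.888 between the lines.

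The sequences of the oligonucleotides define the treatments and are given 5′ to 3′, with each CG in capitals.
ODN2006: tCGtCGttttgtCGttttgtCGtt
ODN2006 control: tgctgcttttgtgcttttgtgctt
CDH13 U, strand 1: tCGgatCGccCGgcaCGggcagggtgaggg
CDH13 U, strand 2: ccctcaccctgccCGtgcCGggCGatcCGa
Both ODNs have 24 bases. They differ by 8 substitutions, C2G, G3C, C5G, G6C, C13G, G14C, C21G and G22C, with the base of ODN2006 first and positions counted from its 5′ end, which turn its 4 CG into 4 GC. The CDH13 strands have 30 bases and 4 CG each, and M differs from U only in the methylation of the cytosines of these CG, at positions 2, 7, 11 and 16 of strand 1 and 14, 19, 23 and 28 of strand 2.

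Promoter sequence was examined because NF-kB is known to act on the genes of its own inhibitors. In the RefSeq windows of GRCh38.p14, which reach from 250 bases before a transcription start to 50 bases after it, the kappa B consensus motif (on either strand) was matched in 11.3% of 35116 windows and for 13.3% of 27305 genes. Of the members 8 had a window, and 7 of these, all but RELA, had a match. RELB and NFKBIE had no window in the table. The 250 bases before the start are shown for the 3 inhibitors whose arrays are described most closely, in the direction of transcription, with the matches in capitals.
NFKBIA, chr14:35404750-35404999, minus strand: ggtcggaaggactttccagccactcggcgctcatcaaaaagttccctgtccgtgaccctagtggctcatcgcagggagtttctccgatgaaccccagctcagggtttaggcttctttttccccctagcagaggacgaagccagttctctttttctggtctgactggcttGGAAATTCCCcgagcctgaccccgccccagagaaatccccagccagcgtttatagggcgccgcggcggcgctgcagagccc
NFKBIZ, chr3:101827740-101827989, plus strand: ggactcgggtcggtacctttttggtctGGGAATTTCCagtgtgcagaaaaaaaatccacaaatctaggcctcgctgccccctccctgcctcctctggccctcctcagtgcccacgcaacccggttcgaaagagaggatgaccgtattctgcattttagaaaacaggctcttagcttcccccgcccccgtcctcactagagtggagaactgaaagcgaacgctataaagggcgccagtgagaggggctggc
TNFAIP3, chr6:137867009-137867258, plus strand: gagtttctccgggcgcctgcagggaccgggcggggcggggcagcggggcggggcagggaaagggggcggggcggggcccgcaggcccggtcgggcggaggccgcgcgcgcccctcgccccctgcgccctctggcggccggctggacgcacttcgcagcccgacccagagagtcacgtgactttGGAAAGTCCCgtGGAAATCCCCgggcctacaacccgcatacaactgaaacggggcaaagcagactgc
The window of TNFAIP3 held 2 matches close to the start, that of NFKBIA held 1, and the upstream window of NFKBIZ held 1 near its far end. A match describes the sequence alone, and no binding was measured in these arrays.

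**Figure D1:**
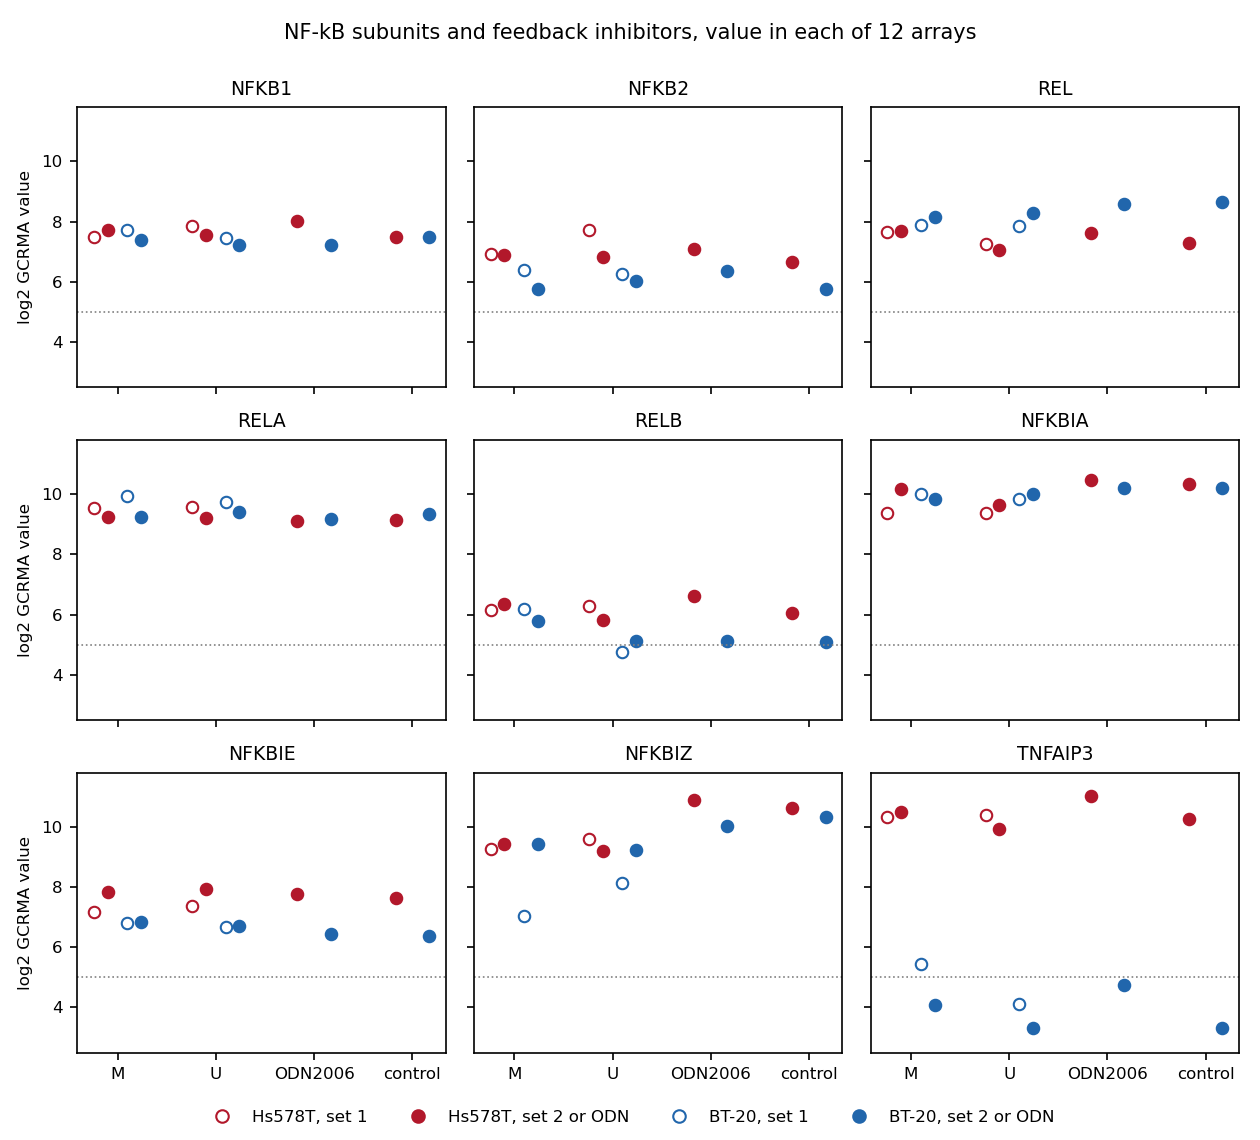
Log2 GCRMA value of 9 genes (vertical axis) in each of 12 arrays, by oligonucleotide (horizontal axis), with Hs578T in red and BT-20 in blue, open points for set 1 of M and U, filled points for set 2 and for the ODN arrays, and a dotted line at 5. TNFAIP3 is the gene whose 6 Hs578T arrays, from 9.93 to 11.04, lie far above its 6 BT-20 arrays, from 3.32 to 5.44, and NFKBIZ in BT-20 lies at 7.03 and 8.13 in set 1 and at 9.23 or above in the other arrays.

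The cell lines were compared first, in the 8 M and U arrays. The brake TNFAIP3 was much higher in Hs578T than in BT-20, the subunits NFKB2 and RELB and the inhibitor NFKBIE were 1.61-fold to 1.97-fold higher, and the subunit REL was 1.56-fold lower. Adjusted p-values are those of limma with Benjamini-Hochberg adjustment over all genes tested, and a gene was called when its adjusted p was below 0.05. The fit took the 4 M and U arrays of a line as independent, although M and U of the same set moved together. The SEs and p-values between the lines are therefore likely too small. Of the 9 members 5 were called, 4 higher and 1 lower in Hs578T, where 74.6% of the 10410 genes tested were called, 34.4% higher and 40.2% lower. The median difference of the members was 0.69 on the log2 scale and that of all genes -0.09. The share of members called was thus not above that of all genes. The bulk arrays cannot tell fewer expressing cells from less RNA per cell.

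TNFAIP3 (chr6:137866349-137883312) encodes a ubiquitin-editing enzyme that removes activating ubiquitin chains from signalling proteins upstream of the IkB kinases. In Hs578T it measured 10.34 and 10.50 under M, 10.38 and 9.93 under U, 11.04 under ODN2006 and 10.26 under the control. In BT-20 it measured 5.44 and 4.08 under M, 4.13 and 3.32 under U, 4.73 under ODN2006 and 3.32 under the control. The lines did not overlap, and 1 of the 6 BT-20 arrays reached 5. The log2 difference was 6.05 (SE 0.33, adjusted p = 5.77e-06), or 66.1-fold. Since most BT-20 values are dim, this fold depends on how the background was modelled, and with values below 5 raised to 5 the log2 difference was 5.18. The other probe set of TNFAIP3 gave 6.63 (SE 0.32, adjusted p = 3.44e-06), with all its BT-20 values below 5.

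NFKB2 (chr10:102394110-102402529), the precursor whose processing releases the partner of RELB in the alternative pathway, measured 6.91 and 6.90 under M, 7.71 and 6.82 under U, 7.09 under ODN2006 and 6.66 under the control in Hs578T. In BT-20 the same arrays gave 6.38 and 5.78, 6.25 and 6.03, 6.35, and 5.77. The lines did not overlap in these 12 arrays, and the log2 difference in the 8 arrays of M and U was 0.98 (SE 0.23, adjusted p = 0.00672). Its other probe sets were below 5 in all arrays.

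RELB (chr19:45001464-45038192), the subunit that pairs with processed NFKB2, ran from 5.81 to 6.60 in Hs578T with a median of 6.21. In BT-20 it ran from 4.75 to 6.17 with a median of 5.13, and the highest BT-20 array, M of set 1, lay within the Hs578T range. The log2 difference was 0.69 (SE 0.16, adjusted p = 0.00772).

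NFKBIE (chr6:44258166-44265551), which encodes an IkB protein that holds dimers in the cytoplasm, ran from 7.15 to 7.95 in Hs578T and from 6.36 to 6.84 in BT-20. Its ranges did not overlap. The log2 difference was 0.83 (SE 0.19, adjusted p = 0.00639).

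REL (chr2:60881574-60931612), a subunit with a transactivation domain that is most used in lymphoid cells, was the member called lower in Hs578T. It ran from 7.06 to 7.69 there and from 7.87 to 8.67 in BT-20, without overlap. The log2 difference was -0.64 (SE 0.13, adjusted p = 0.00353), and the 3 other probe sets of REL that were bright enough to fit gave -0.77, -0.95 and -1.08, all called. The probe set at -1.08 was below 5 in all Hs578T arrays and was tested only because BT-20 was higher, so it adds little and its size depends on the background model.

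The remaining members were not called. NFKB1 (chr4:102501359-102617302), the precursor of the partner of RELA, had a mean of 7.65 ± 0.18 in Hs578T and 7.45 ± 0.22 in BT-20 (SD, n = 4 arrays of M and U), a log2 difference of 0.20 (SE 0.14, adjusted p = 0.229). RELA (chr11:65653601-65663857), the main transactivating subunit, had 9.39 ± 0.20 and 9.58 ± 0.31 (SD, n = 4), a difference of -0.19 (SE 0.19, adjusted p = 0.408). NFKBIA (chr14:35401513-35404749), the IkB protein resynthesised most quickly after activation, had 9.64 ± 0.38 and 9.91 ± 0.10 (SD, n = 4), a difference of -0.27 (SE 0.19, adjusted p = 0.225). NFKBIZ (chr3:101827990-101861022), a nuclear IkB protein that modulates dimers on DNA, had 9.37 ± 0.17 and 8.46 ± 1.11 (SD, n = 4), a difference of 0.91 (SE 0.53, adjusted p = 0.157). The spread of NFKBIZ came from BT-20, where set 1 and set 2 lay apart. Hs578T minus BT-20 was 2.225 under M and 1.46 under U in set 1, but -0.025 and -0.029 in set 2. A block on set takes this spread between sets out of the error. With set as a block within each line NFKBIZ was called (adjusted p = 0.014), and it was also called without the M array of set 2 of BT-20, at 1.51 (adjusted p = 0.00445), whereas without the M array of set 1 of BT-20 the difference was 0.31 (adjusted p = 0.374).

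The scale of the comparison affected the smaller differences. The median level of 11 housekeeping genes was 13.66 to 13.79 in the Hs578T arrays and 13.12 to 13.40 in the BT-20 arrays, and in each of the 12 arrays the gene at the median was PGK1, a glycolytic enzyme, so that centring on this level was centring on 1 gene. PGK1 was itself called higher in Hs578T, by 0.45 (SE 0.10, adjusted p = 0.00451), while the 11 genes together had a median difference of -0.05. Centring each array on it moved the median difference of all genes from -0.09 to -0.55 and left 9 of the 11 housekeeping genes lower in Hs578T. On that scale 2 members were called higher (NFKB2 and TNFAIP3) and 3 lower (REL, RELA and NFKBIA), RELB and NFKBIE were no longer called, and the difference of NFKB1 turned to -0.25. When each housekeeping gene was first set against its own mean and arrays were centred on the median deviation, the median difference of all genes was -0.05 and the same 5 members were called in the same directions, RELB at 0.72 (adjusted p = 0.00683) and NFKBIE at 0.86 (adjusted p = 0.00440). TNFAIP3, NFKB2 and REL kept their direction and their call on the 3 scales.

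**Figure D2:**
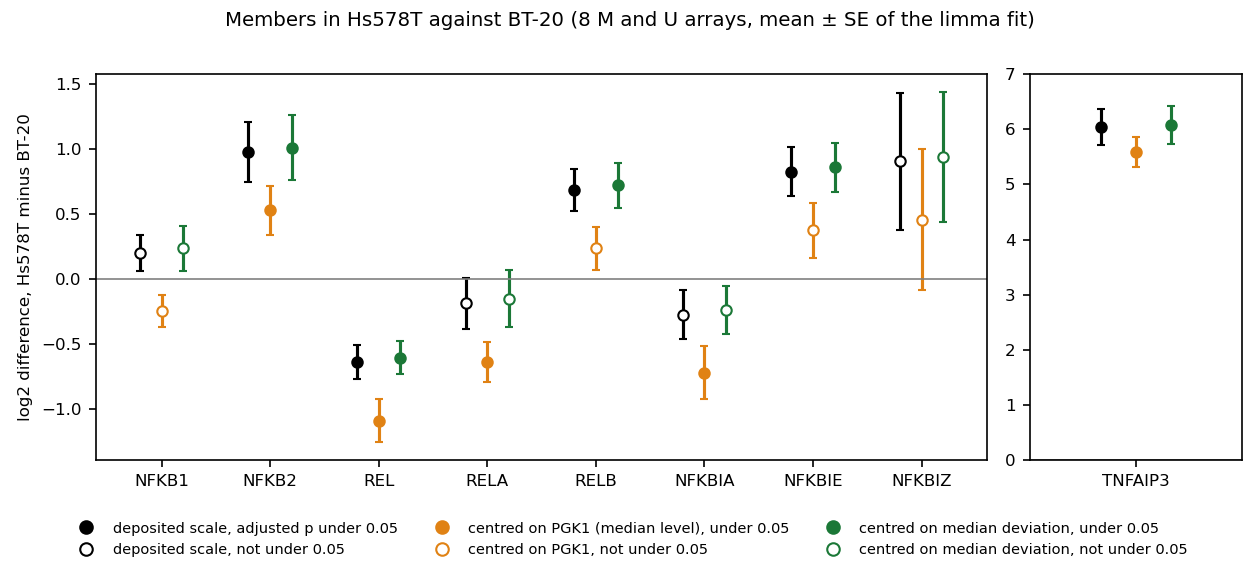
Log2 difference of each member between Hs578T and BT-20 (vertical axis; TNFAIP3 on a scale of its own) in the 8 M and U arrays, with the SE of the limma fit, on the deposited scale (black), after centring on the median level of the housekeeping genes, which is PGK1 (orange), and after centring on their median deviation (green), with filled points for an adjusted p below 0.05. TNFAIP3, NFKB2 and REL are filled on the 3 scales, while NFKBIE at 0.83 and RELB at 0.69 are filled on the deposited scale and on that of the median deviation.

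The other genes of the pathway were read from lists by role, in the same comparison. The counts of each list stand beside 34.4% of all genes tested called higher and 40.2% called lower. Where a gene was below 5 in all M and U arrays of 1 line, it was tested only because the other line was high, and its difference is given as a lower bound, against a value of 5. Of 18 receptors and adaptors tested, 6 were called higher and 9 lower in Hs578T, with a median of -0.39. Of these, 3 of the higher and 2 of the lower were dim throughout the line with the lower level. TRAF5, an adaptor of tumour necrosis factor receptors, was between 7.81 and 8.98 in Hs578T and between 2.34 and 2.395 in BT-20, and was at least 12.4-fold higher in Hs578T (adjusted p = 5.08e-07 in the fit to the values as deposited). IRAK2, a kinase downstream of interleukin-1 and Toll-like receptors, was at least 5.35-fold higher, whereas its relative IRAK1 differed by -1.77 (SE 0.09) and CD40, a receptor of the alternative pathway, was at least 3.38-fold lower, all called. After centring on PGK1 5 receptors and adaptors were called higher and 10 lower.

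Among 20 kinases and ubiquitin factors, 8 were called higher and 9 lower, with a median of -0.14. The catalytic IkB kinases CHUK and IKBKB were higher in Hs578T, by 3.40 (SE 0.21) and 1.45 (SE 0.11). MAP3K14, the kinase that starts the alternative pathway, was lower by a log2 difference of -3.19 (SE 0.14), with 4.27 to 5.60 in Hs578T and 8.01 to 8.39 in BT-20, and TAB3, an adaptor of the kinase MAP3K7, by -1.81 (SE 0.14). After centring on PGK1 5 of this list were called higher and 11 lower.

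Among 13 other IkB proteins and brakes, 3 were called higher and 7 lower, with a median of -0.29. PDLIM2, a ubiquitin ligase for nuclear RELA, was higher by 3.01 (SE 0.18) and COMMD1, which also promotes the removal of RELA, by 0.86 (SE 0.10). TNIP2, a binding partner of TNFAIP3, and ITCH, a ligase that acts with it, differed by -1.38 (SE 0.11) and -1.39 (SE 0.12). With centring on PGK1 2 were called higher and 7 lower.

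Among 22 NF-kB targets outside the members, 11 were called higher and 4 lower, with a median of 0.38. In 6 of the 11 called higher the BT-20 values were below 5 in all M and U arrays, and these counts and the median rest on dim values to that extent. PLAU, which encodes urokinase, was at least 62.4-fold higher in Hs578T, the cytokine gene IL6 at least 62.8-fold and TNFAIP6, a hyaluronan-binding protein, at least 15.5-fold. TNFAIP2 ran the other way, below 5 in Hs578T and at least 11.0-fold lower. After centring on PGK1 the counts were 10 and 5, and the median turned to -0.07, and after centring on the median deviation they were 12 and 4, with a median of 0.42.

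**Figure D3:**
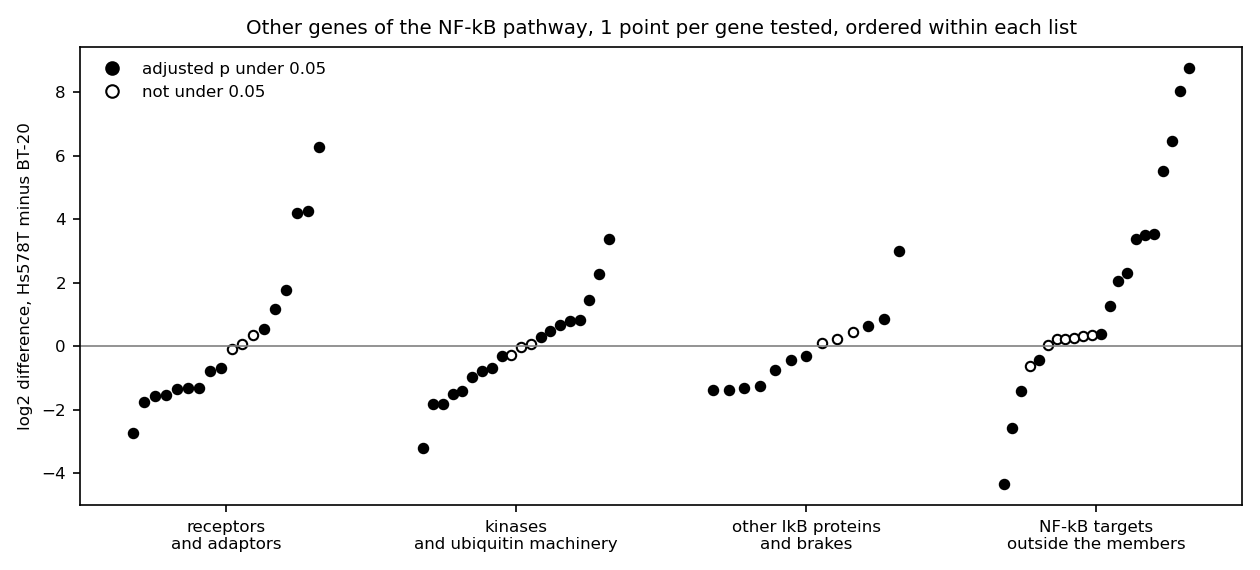
Log2 difference between Hs578T and BT-20 (vertical axis) of each tested gene of 4 pathway lists (horizontal axis), in the 8 M and U arrays, with filled points for an adjusted p below 0.05. The list of targets reaches from -4.34 (TNFAIP2) to 8.77 (PLAU), both fitted against dim values that give only a lower bound of the size, and each list holds called genes in both directions.

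M was compared with U to ask whether CpG methylation of the CDH13 oligonucleotide changed these genes. By limma 0 of 9 members were called within Hs578T, within BT-20, over the lines together or for the difference between them, and in each of these comparisons 0% of 10410 genes were called. At an unadjusted p below 0.05 the count was 1 of 9 members in each of the 4 comparisons, against 680, 174, 543 and 258 of 10410 genes in that order. The median difference of the members was 0.00 in Hs578T and 0.01 in BT-20, beside -0.01 and 0.00 for all genes.

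In Hs578T the member with the smallest p was REL, with 7.64 under M and 7.24 under U in set 1, and 7.69 and 7.06 in set 2. M lay above U in both sets, and the mean difference was 0.51 (SE 0.18, adjusted p = 0.703 by limma). The 3 other REL probe sets that could be fitted gave 0.40, 0.56 and 0.86, the last with all its Hs578T values below 5. In BT-20 the difference of REL was -0.05 (SE 0.18), and the difference between the lines was 0.56 (SE 0.26, adjusted p = 0.9989).

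In BT-20 the member with the smallest p was RELB, with 6.17 under M and 4.75 under U in set 1, and 5.77 and 5.13 in set 2. M was the higher in both sets, by 1.03 on average (SE 0.23, adjusted p = 0.9998 by limma). TNFAIP3 in BT-20 was also higher under M in both sets, 5.44 against 4.13 and 4.08 against 3.32, a difference of 1.03 (SE 0.47, adjusted p = 0.9998 by limma), but 3 of these 4 values are below 5, and the other probe set gave 0.06 (SE 0.46). In Hs578T the differences of RELB and TNFAIP3 were 0.21 (SE 0.23) and 0.26 (SE 0.47). The other members differed between M and U by -0.45 to 0.26 in either line, with NFKBIZ in BT-20 at the low end and an SE of 0.74. A log2 difference well within such errors was not detectable with 2 arrays a group.

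Of the pathway lists, no gene was called between M and U. The smallest p belonged to MAP3K14 in Hs578T, which was lower under M in both sets (4.27 against 5.55 and 4.71 against 5.42), a difference of -0.997 (SE 0.19, adjusted p = 0.589 by limma).

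ODN2006 was compared with its GpC control, which lacks CG, in 1 array of each per line, so the spread in this limma fit came from the M and U groups. Over both lines 0 of 9 members were called, where 0.00948% of 10543 genes were called, and 0 of 9 were called for the difference between the lines, where 0% of genes were called. At an unadjusted p below 0.05 both counts of members were also 0, beside 490 and 309 genes. Over both lines 8 of 9 members had a higher mean under ODN2006, RELA being the exception, or 7 of 9 after centring on the median deviation of the housekeeping genes, and the members' median was 0.12, beside -0.06 for all genes.

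In Hs578T the median of the members was 0.33, beside -0.07 for all genes. This median is the value of REL. Its 3 other fitted probe sets measured 6.34, 6.67 and 3.55 under ODN2006, against 6.93, 6.62 and 4.22 under the control. The last of these is dim in all Hs578T arrays. The differences were 0.78 (SE 0.66) for TNFAIP3, 0.56 (SE 0.33) for RELB, 0.53 (SE 0.28) for NFKB1 and 0.43 (SE 0.46) for NFKB2, with the values of ODN2006 at 11.04, 6.60, 8.04 and 7.09. For TNFAIP3, RELB and NFKB1, and also for NFKBIA and NFKBIZ, the ODN2006 array was the highest of the 6 Hs578T arrays. For NFKBIA and NFKBIZ the control array came next, and how often this held over all genes was not counted. In BT-20 the median was -0.01, and TNFAIP3 at 1.41 (SE 0.66) and NFKB2 at 0.58 (SE 0.46) had the largest differences. The TNFAIP3 values there were 4.73 and 3.32, both dim, and the other probe set gave 2.39 and 2.79, the opposite order.

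The NF-kB targets had a median of 0.33 in Hs578T and of 0.05 in BT-20, with none of 24 called. The smallest p in Hs578T was that of the chemokine gene CXCL3, at 6.18 under ODN2006 and 3.17 under the control, and the next that of PTGS2, which encodes an inducible prostaglandin synthase, at 7.27 and 3.02. Both control values are dim. The fitted log2 differences were 3.01 (SE 0.46, adjusted p = 0.204) and 4.25 (SE 0.84, adjusted p = 0.389). Across the M and U arrays of Hs578T, PTGS2 itself ran from 3.40 to 6.04.

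The 2 ODN arrays were then compared with the 2 arrays of set 2 for M and U in each line. These oligonucleotides differ in sequence, strandedness and chemistry, which cannot be told apart here, and the ODN cultures carry no set number. ODN2006 and its control were joined as replicates, and so were M and U, so the error leaves out the spread between sets. In Hs578T 1 of 9 members was called, where 9.03% of 10375 genes were called, so the share of members was near that of all genes. In BT-20 0 of 9 were called, where 0% of genes were, and for the difference between the lines 0 of 9, where 0.27% of genes were. At an unadjusted p below 0.05 the counts were 2 members in Hs578T, 2 in BT-20 and 1 for the difference, beside 3051, 534 and 1659 genes.

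The member called was NFKBIZ. In Hs578T it measured 10.91 under ODN2006 and 10.63 under the control, against 9.41 under M and 9.21 under U of set 2, and 9.26 and 9.59 in set 1. Both ODN arrays lay above the 4 others, and the log2 difference from set 2 was 1.46 (SE 0.16, adjusted p = 0.00992), or 2.74-fold. In BT-20 it measured 10.04 and 10.31 under the ODNs against 9.44 and 9.23 in set 2, a difference of 0.84 (SE 0.16, adjusted p = 0.370). The difference between the lines was 0.62 (SE 0.23, adjusted p = 0.269).

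The other NFKBIZ probe set did not show this in Hs578T. It measured 9.01 under ODN2006 and 8.31 under the control, against 9.38 and 8.62 in set 2, a difference of -0.34 (SE 0.30, adjusted p = 0.492). In BT-20 it measured 9.67 and 9.64 against 9.31 and 9.20, a difference of 0.40 (SE 0.30, adjusted p = 1.00). With the mean of both probe sets the adjusted p in Hs578T was 0.130. For the probe set used, the size hardly moved with the arrays. Without the ODN2006 array of Hs578T the difference was 1.32 (SE 0.18, adjusted p = 0.0565), and with M and U of both sets it was 1.40 (SE 0.65, adjusted p = 0.224). The call was lost in each of these, but the other probe set alone changed the direction.

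**Figure D4:**
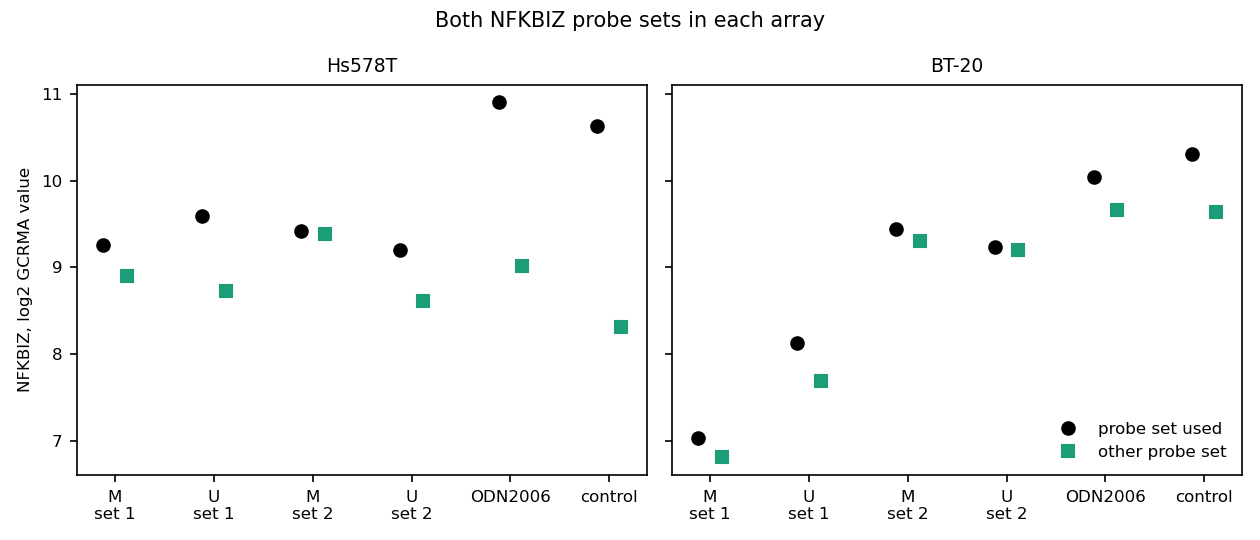
Log2 GCRMA value of NFKBIZ (vertical axis) in each array of Hs578T (left) and BT-20 (right), by oligonucleotide and set (horizontal axis), for the probe set used (black circles) and the other one (green squares). In BT-20 both probe sets are lowest in set 1, while in Hs578T the ODN arrays stand at 10.91 and 10.63 for the probe set used and at 9.01 and 8.31 for the other.

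The other members moved less. NFKBIA in Hs578T measured 10.48 and 10.34 under the ODNs, against 10.17 and 9.65 in set 2 and 9.37 and 9.37 in set 1, and both ODN arrays lay above the rest. The difference from set 2 was 0.50 (SE 0.18, adjusted p = 0.123), and in BT-20 it was 0.29 (SE 0.18). NFKBIE in BT-20 measured 6.43 and 6.36 against 6.84 and 6.69, a difference of -0.37 (SE 0.11, adjusted p = 0.769). The remaining differences of members lay between -0.34 and 0.44 in the 2 lines.

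**Figure D5:**
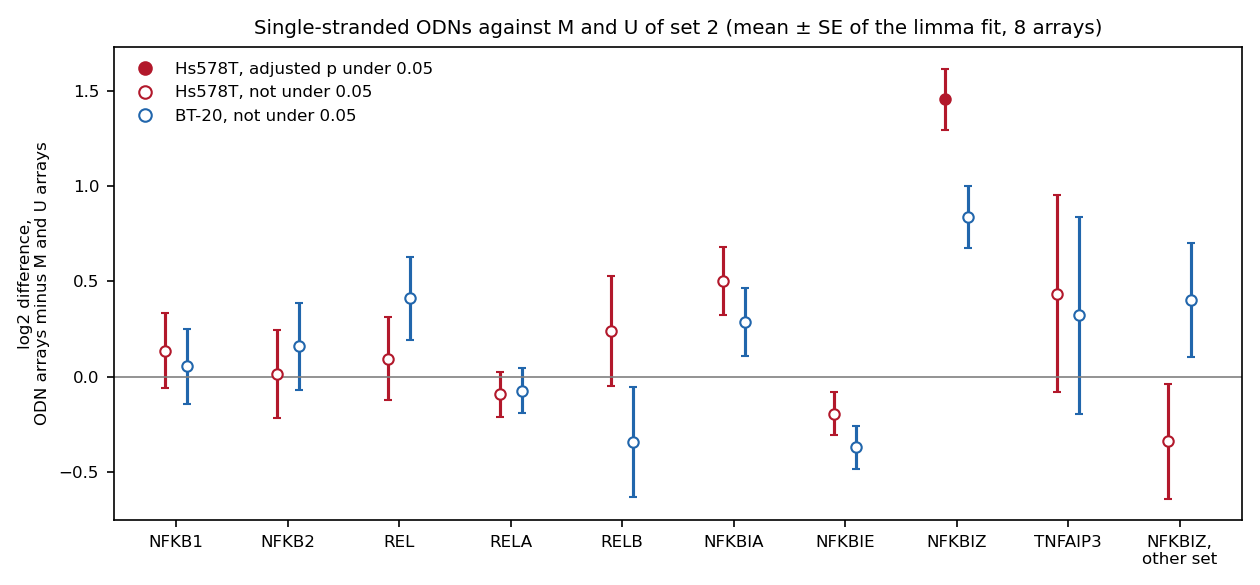
Log2 difference of the 2 ODN arrays from M and U of set 2 (vertical axis) for each member and for the other NFKBIZ probe set (horizontal axis), with the SE of the limma fit, Hs578T in red and BT-20 in blue. The filled point, with an adjusted p below 0.05, is NFKBIZ in Hs578T at 1.46, and its other probe set lies at -0.34.

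In the same comparison in Hs578T, 3 of 24 NF-kB targets were called, all higher with the ODNs, where 9.03% of all genes were called. The median of the targets was 0.42 beside -0.06 for all genes. With M and U of both sets 1 of the 24 was called, where 910 of 10543 genes were. It was the apoptosis inhibitor CFLAR, at 0.69 (SE 0.11, adjusted p = 0.0221). The median of the targets was then 0.27, and none of the 3 called against set 2 was called. The chemokine gene CCL2 measured 7.46 and 7.27 against 5.78 and 5.49, a difference of 1.73 (SE 0.15, adjusted p = 0.00480). Its difference between the lines was called too, at 2.02 (SE 0.21, adjusted p = 0.0237). The BT-20 values of CCL2, 2.48 and 2.43 against 2.88 and 2.60, are all dim, so the size of that difference depends on the background model. GADD45B, a stress-response gene, differed by 1.12 (SE 0.17, adjusted p = 0.0202). The cytokine gene IL1B measured 9.55 and 7.95 against 5.52 and 4.96, a difference of 3.51 (SE 0.47, adjusted p = 0.0148), but in set 1 it stood at 7.64 under M and 7.91 under U, so that the size depends on the set. CCL2 in set 1 likewise stood at 6.52 and 7.08, and its difference from both sets was 1.15 (SE 0.43, adjusted p = 0.148).

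Of 18 receptors and adaptors IRAK2 was higher by 1.34 (SE 0.17, adjusted p = 0.0126) and TNFRSF11A, the receptor RANK, was called lower (adjusted p = 0.0427), but its 6 Hs578T values are all below 5, so no size is given, and with M and U of both sets its adjusted p was 0.0675. IRAK2 remained called with both sets, at 1.15 (SE 0.17, adjusted p = 0.0203). Of 14 other IkB proteins and brakes TNIP3, a binding partner of TNFAIP3, was called higher (adjusted p = 0.0126), at 5.87 under ODN2006 and 5.10 under the control against 3.56 to 3.71 in M and U of both sets. TNIP3 was dim in all arrays but these 2, which alone brought it into the test, and with values below 5 raised to 5 the difference was 0.48 (adjusted p = 0.200), a bound of at least 1.40-fold. OTUD7B, a deubiquitinase of the alternative pathway, and NFKBIL1 were lower, with log2 differences of -1.13 (SE 0.13, adjusted p = 0.0111) and -0.44 (SE 0.09, adjusted p = 0.0398). NFKBIL1 measured 6.16 under ODN2006 and 6.13 under the control, against 6.59 and 6.58 in set 2. In set 1 it stood at 6.17 under M and 6.16 under U, level with the ODN arrays, so that its difference depends on the set. After centring on PGK1 the brakes counted 0 higher and 1 lower of 13, TNIP3 not being tested, while receptors and targets kept their counts. After centring on the median deviation the receptors counted 1 higher and 0 lower and the brakes 1 and 1. None of 19 kinases and ubiquitin factors was called, beside 9.03% of all genes. In BT-20, where 0% of all genes were called, none of the 4 lists had a called gene.

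Set 2 was compared with set 1 within each line, M and U together, to show how far the sets differed in these genes. The sets differ both in culture and in the tag of their array names, which cannot be told apart here. In Hs578T 0 of 9 members were called, where 2.74% of 10410 genes were, and 3 members had an unadjusted p below 0.05, beside 1929 genes. NFKBIE measured 7.15 under M and 7.38 under U in set 1 and 7.83 and 7.95 in set 2, a difference of 0.63 (SE 0.13, adjusted p = 0.0577). NFKBIA differed by 0.54 (SE 0.18, adjusted p = 0.181) and RELA by -0.34 (SE 0.12, adjusted p = 0.186).

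In BT-20 1 of 9 members was called, where 2.5% of genes were. NFKBIZ measured 7.03 under M and 8.13 under U in set 1 and 9.44 and 9.23 in set 2, a difference of 1.76 (SE 0.33, adjusted p = 0.04995), or 3.38-fold, just inside the threshold. The other probe set had 6.81 and 7.69 in set 1 and 9.31 and 9.20 in set 2, a difference of 2.00 (SE 0.33, adjusted p = 0.0349). RELA differed by -0.51 (SE 0.12, adjusted p = 0.0752), and after centring on the median deviation of the housekeeping genes by -0.61 (adjusted p = 0.0418). TNFAIP3 differed by -1.08 (SE 0.45, adjusted p = 0.255), but 3 of its 4 values are dim, and with values below 5 raised to 5 it differed by -0.22. Leaving out an array moved NFKBIZ in BT-20 between 1.21 and 2.30 and lost the call in 7 of 8 cases. RELA was lower in set 2 than in set 1 in each of the 4 pairs of arrays, by a log2 difference of -0.70 to -0.32, whereas its other probe set differed by -0.08 (SE 0.14) in Hs578T and -0.27 (SE 0.14) in BT-20. Among the listed genes IL1B in Hs578T had the largest called set difference, at -2.53 (SE 0.20, adjusted p = 0.00230), beside TLR4 at -1.52 (SE 0.18, adjusted p = 0.0105) and TNFAIP6 at 1.06 (SE 0.11, adjusted p = 0.00672), and in BT-20 IKBKE, LIF and CSF1 were lower in set 2, by -0.90, -0.75 and -0.62 on the log2 scale, the set 2 values of IKBKE and CSF1 being dim.

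The members did not move as a block across the arrays. The mean of each line was subtracted, and correlations were taken over the 12 arrays, which share a line or a set. Pairs of members ran from -0.83 (RELA and NFKBIZ) to 0.68 (RELB and TNFAIP3). REL and NFKBIZ stood at 0.67, NFKB1 and RELB at 0.62, and NFKB1 and NFKB2 at 0.47. The genes whose values were most like those of NFKBIZ by this measure were TMED8 (0.94), EGR1 (0.94) and SYTL2 (0.93), those for NFKBIA were NT5C3A (0.95), SULT1A1 (0.95) and SMURF1 (0.94), those for RELA were FUT8, PPP2R2C and ALKBH2 (0.97 to 0.98), and those for TNFAIP3 were MTX2 (0.89), LPAR1 (0.81) and TFR2 (0.80). For the other 5 members the 3 most like genes reached correlations of 0.83 to 0.92. These are descriptions over arrays of which 8 belong to set 2 or its tag.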

How the data were processed

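Total RNA of the 12 samples was hybridised to Affymetrix arrays, and the submitters' processing notes name GCRMA in R 2.4. The deposited values, made by the authors, are log2 expression values, 1 for each of 54675 probe sets. Whether all arrays were normalised together is not given in the sources used here. The median value per array lay between 3.01 and 3.08, and precision is limited by how few arrays there are. The probe table gives 1 gene for 41097 probe sets, several for 1801 and lists 11777 not at all, and symbols were updated by gene ID from RefSeq for 41043 and kept for 54. The deposited values come from background-corrected, summarised intensities, so low values depend on the background model. Promoter windows and gene coordinates are those of RefSeq, GRCh38.p14.

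Genes at 5 or above in at least 2 arrays of a fit were tested in R 4.3.3 by limma 3.58.1. The fits used a mean for each group, contrasts and eBayes (4 residual degrees of freedom), with Benjamini-Hochberg adjustment over all genes tested and a threshold of 0.05. Groups were line by oligonucleotide, except where stated below. Differences are on the log2 scale. The spread of an ODN group of 1 array was taken from the M and U groups. ODN arrays were compared with M and U of set 2 in a fit of those 8 arrays, and set 2 with set 1 in the 8 M and U arrays. The former fit joined ODN2006 with its control, and M with U, as replicates within a line. The latter joined M with U of a set. In the fits by oligonucleotide the p-values measure the spread between cultures of 1 cell line, taken as independent across M and U of a set. In the fits that join oligonucleotides they measure the spread between the joined arrays, which leaves out the spread between sets. Members and lists were chosen with earlier results of these data known. The genes named were all members, for each list up to 4 genes with the smallest p in a comparison or all called where 5 or fewer were, and for each member the 3 most like genes.

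Set numbers were checked as pairs. Across 10410 genes, deviations of M and U of the same set from their group means had a correlation of 0.599 within Hs578T and 0.595 within BT-20, and of 0.0984 to 0.131 when taken from different lines. Alternatives were no filter, values below 5 raised to 5, the mean of a gene's probe sets, centring on the median level of 11 housekeeping genes, limma with trend and robust, set as a block, and leaving out each array. Of 10 other probe sets of the members, 6 were bright enough to be fitted in turn. This last alternative, centring on the median, over the housekeeping genes, of a gene's deviation from its own mean over the 12 arrays, each line alone for the ODNs, and M and U of both sets were chosen after seeing the data. Lower bounds come from values below 5 raised to 5. Columns of no sample numbered 0.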

Additional observations from a re-analysis of the deposited data

How the results depend on the processing

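The count of members called between the lines stayed between 4 and 6 under every alternative, against 5. With set as a replicate block, which takes the spread between sets out of the error, it was 6, NFKBIZ joining (adjusted p = 0.014). The block left the counts between M and U, and between ODN2006 and its control, at 0. These counts were 0 under every alternative run. Without the second M array of BT-20 NFKBIZ was called between the lines (1.51, adjusted p = 0.00445), and without the second M array of Hs578T NFKBIA was (-0.47, adjusted p = 0.019). Centring on the median housekeeping level, which is PGK1, reversed NFKB1 between the lines (-0.25, adjusted p = 0.0967). With the mean of its probe sets NFKB2 fell below the filter.

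For the ODN arrays against M and U of set 2 in Hs578T, the count of 1 became 0 with the mean of a gene's probe sets and with M and U of both sets, and ran from 0 to 1 when arrays were left out, being 0 without the ODN2006 array. NFKBIZ was reversed with its other probe set (-0.34 in Hs578T, and -0.74 for the difference between the lines), and that difference was -0.062 with the mean of probe sets. The cause was not tested. For set 2 against set 1, the count in Hs578T became 1 (NFKBIE) with values below 5 raised to 5 and with the mean of probe sets, and ran from 0 to 1 when arrays were left out. In BT-20 the count of 1 became 0 without the filter and 2 (with RELA) when centred on the housekeeping genes' median deviation, and ran from 0 to 1 when arrays were left out. For single members the alternatives were read for 24 results, those between the lines and those with an unadjusted p below 0.05. Apart from the reversals named in this section, these kept their direction. Results outside the 24 did not all do so. For ODN2006 against its control over both lines REL was at 0.12, and its other fitted probe sets gave -0.58, 0.04 and -0.33, the last being dim in Hs578T.

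Over all genes, the count for ODN2006 against its control rose from 1 to 150 without the filter and to 3 with values raised to 5, that for its difference between the lines from 0 to 134, and that for the ODN arrays against set 2, difference between the lines, from 28 to 67 and to 50. For the ODN arrays in Hs578T trend and robust gave 1444 in place of 937, the median deviation 519, and leaving out arrays gave 50 to 1510. For set 2 against set 1 in BT-20 values raised to 5 gave 417 in place of 260, the median deviation 454, and leaving out arrays gave 30 to 419, or 27 to 367 in place of 285 in Hs578T. The small groups limit what differences between M and U could be seen.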
